A study of Homo sapiens with 6 samples.

Results

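The cytosolic ribosomal protein genes encode the protein part of the ribosome that translates nuclear-encoded mRNA. Membership was set by gene name, and the set was chosen with earlier results of these data known. It holds protein-coding genes whose GENCODE 44 symbol starts with RPL or RPS and a digit, or is RPSA or RPLP0 to RPLP2. The RPS6 kinase genes and RPS19BP1 were left out. The rule found 90 genes, 89 of them among the 63677 gene identifiers of the count table. Of the 90, 46 were large subunit (60S) genes, 31 were small subunit (40S) genes, 10 were paralogs of such genes and 3 were readthrough genes that join a ribosomal protein gene to its neighbour.

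RNA was sequenced from UWB1.289 cells, an ovarian carcinoma line that lacks functional BRCA1, a protein of homologous recombination repair, although the labels give the genotype as WT. The 3 treated samples received 4 µM Olaparib, an inhibitor of the DNA repair enzymes PARP1 and PARP2, for 24 h, and the 3 control samples received the solvent DMSO for the same time. The sample labels give 4 µM, while the series' design text gives 10 µM. The samples were replicates of 1 line, so p-values measure the spread between replicates. The paper describes 3 dishes for each condition and independent replicates, without saying which dish gave which library.

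The 6 libraries held 35360458 to 39640775 counts assigned to genes. Epithelial markers were present in each library, from 1243 counts for CDH1 in the lowest library upwards, while the 7 markers of other cell types had 0 to 328 counts per library, with PECAM1 at 0, CD3E and DCN at 3 or fewer, CD14 at 33 to 55, VWF at 38 to 69, PTPRC at 53 to 75 and COL1A1 at 237 to 328. Of the 4 of these that were tested, VWF, an endothelial marker, was called higher after Olaparib at a log2 fold change of 0.68 ± 0.16 (SE, adjusted p = 0.0106, edgeR). CD14, a monocyte marker, was at 0.42 ± 0.18 (SE, adjusted p = 0.260, edgeR) with every treated library above every control. Of the 8 epithelial markers, PAX8 was called higher at 0.10 ± 0.029 (SE, adjusted p = 0.0399, edgeR), and the part of any marker in the results below was not tested.

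In growing cells ribosomal protein mRNAs are among the most abundant. Most of these mRNAs begin at a cytosine followed by a run of pyrimidines, the 5′ terminal oligopyrimidine (TOP) tract, through which mTOR and LARP1 control their translation. Control through the tract acts mainly on translation, which counts of total polyadenylated RNA do not measure.

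The start regions of the genes that lead the sections below show this shared tract and where it is lacking. RefSeq promoters (GRCh38.p14) matched 72 of the 90 genes with 89 start sites, counted gene by gene, and the others were not examined. RPL17 and RPL36A each share a start site with their readthrough gene, and such a site is counted for both genes. A C followed by at least 4 C or T, starting within 10 bases of the annotated start, was present at 69 of the 89 start sites (77.5%), against 33.5% of all 35116 RefSeq promoters. By gene, 35 of 38 large subunit genes, 22 of 24 small subunit genes and 3 of 8 paralogs had such a tract at 1 or more start sites. Each line gives 15 bases before the start and 15 from it, 5′ to 3′ on the gene's strand, with the pyrimidine tract in capitals where it meets the rule.
RPLP1, chr15:69452803-69452832, plus strand: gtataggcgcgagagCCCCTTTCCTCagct
RPL28, chr19:55385917-55385946, plus strand: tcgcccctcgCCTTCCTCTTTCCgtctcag
RPLP0, chr12:120201097-120201126, minus strand: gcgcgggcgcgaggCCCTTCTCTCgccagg
RPS3, chr11:75399503-75399532, plus strand: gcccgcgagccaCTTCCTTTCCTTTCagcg
RPSA, chr3:39406705-39406734, plus strand: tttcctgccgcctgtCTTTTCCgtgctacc
RPL39, chrX:119791616-119791645, minus strand: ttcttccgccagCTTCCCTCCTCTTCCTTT
RPL41, chr12:56116618-56116647, plus strand: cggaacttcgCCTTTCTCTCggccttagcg
RPS27, chr1:153990747-153990776, plus strand: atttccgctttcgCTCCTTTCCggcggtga
RPS27L, chr15:63157463-63157492, minus strand: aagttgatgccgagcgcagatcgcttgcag

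RPLP1 and RPL28 are shown because they were called higher after Olaparib, RPLP0, RPS3 and RPSA because they followed closely, and RPL39 and RPL41 because they had the lowest fold changes. RPL39 carried a long tract of 22 pyrimidines, which runs past the window. RPS27 and its paralog RPS27L differ at the start, the first with a tract of 9 bases and the second with none.

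Over the 300 bases around each start, both strands were searched for 4 further motifs. The ETS and GABP motif CCGGAAG was present at 31.5% of the members' start sites and 10.3% of all promoters, and the YY1 motif AAGATGG at 10.1% and 5.84%. The TATA motif TATAAA was at 8.99% against 11.5%, and the E-box CACGTG at 5.62% against 7.26%. These matches describe sequence and say nothing of binding in these cells.

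After Olaparib the ribosomal protein genes as a group stayed close to their DMSO level. Of the 90, 82 passed the filter of more than 10 counts over the 6 libraries. Their fitted log2 fold changes (Olaparib against DMSO, edgeR) ran from -0.13 to 0.13 with a median of 0.029, beside a median of -0.0042 over all 21729 genes tested and of 0.0094 over the 6787 genes with a mean of at least 1000 counts, the range in which 77 of the 82 fell. The fold change was positive for 67 genes (81.7%) and negative for 15, against 48.6% positive over all genes and 55.8% over those of at least 1000 counts. No member passed both an adjusted p of 0.05 and a fold of 1.2, which 1.21% of all genes did.

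Genes with higher counts came to 3 of the 82 (3.66%) at an adjusted p of 0.05, all of the large subunit, RPLP1 and RPL28 among them. Over all genes, 2.15% were called higher, and over those of at least 1000 counts 4.16% were. None was called lower, against 1.21% of all genes, and 3.36% were called in either direction. At an unadjusted p of 0.05, 15 members (18.3%) were higher and 0 lower, where the shares were 7.83% and 6.97% over all genes and 13.9% and 7.97% over those of at least 1000 counts. DESeq2 also called 0 members lower, and so did limma voom.

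For single genes, the precision bounds how far the mRNA could have moved relative to the rest of the library. The 95% intervals do not hold jointly over the 82 genes, which also shifted together by library, as given below. They cannot show a change in mRNA per cell. The median standard error of the members' log2 fold changes was 0.029, and the 95% interval lay within a fold of 1.2 in either direction for 81 of the 82 genes. It lay within a fold of 1.1 for 71. The exception at 1.2 was RPS10, with an interval from -0.31 to 0.20 on the log2 scale.

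**Figure D1:**
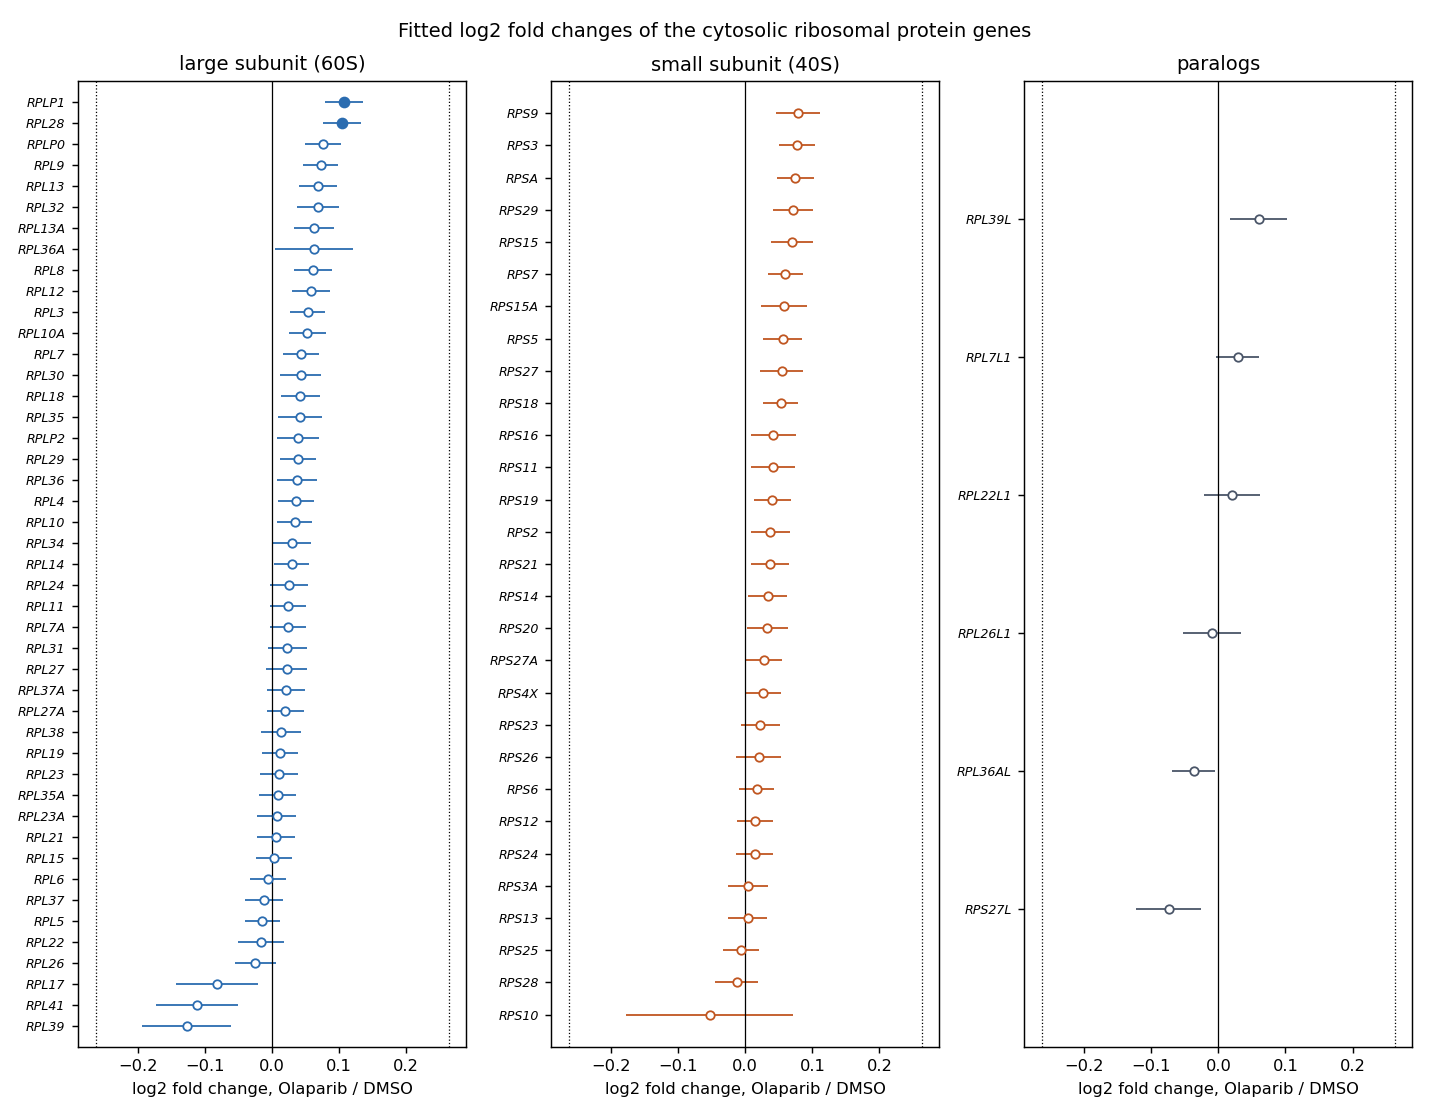
Fitted log2 fold change (Olaparib against DMSO) of single genes with its standard error as the bar, in panels for 45 large subunit genes, 29 small subunit genes and 6 paralogs, with 2 tested genes not drawn. Filled points passed an adjusted p of 0.05 (RPLP1 and RPL28), and all points lie inside the dotted lines, which mark a fold of 1.2.

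The libraries of a group did not sit together on these genes, as the plot of single libraries shows. The median member stood at -0.012, 0.037 and 0.064 log2 units from the DMSO mean in Olaparib 1, 2 and 3, and at -0.019, -0.013 and 0.030 in DMSO 1, 2 and 3. Olaparib 1 thus lay with the lower DMSO libraries, and DMSO 3 lay near Olaparib 2. Olaparib 1 was the lowest treated library for 65 of the 82 genes and Olaparib 3 the highest for 61, while DMSO 3 was the highest control for 64. Over genes of at least 1000 counts the medians of the 6 libraries were within -0.0080 to 0.013. The scaling between libraries brings such medians close together, so they cannot show how far other gene groups of that abundance spread.

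The number of calls depended on single libraries. Without Olaparib 1, 13 members were called higher, and without Olaparib 2, Olaparib 3, DMSO 1 or DMSO 2, none was. Without DMSO 3, 2 were called, RPL28 among them. The median over members was positive in each of these fits, from 0.013 without Olaparib 3 to 0.050 without Olaparib 1.

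**Figure D2:**
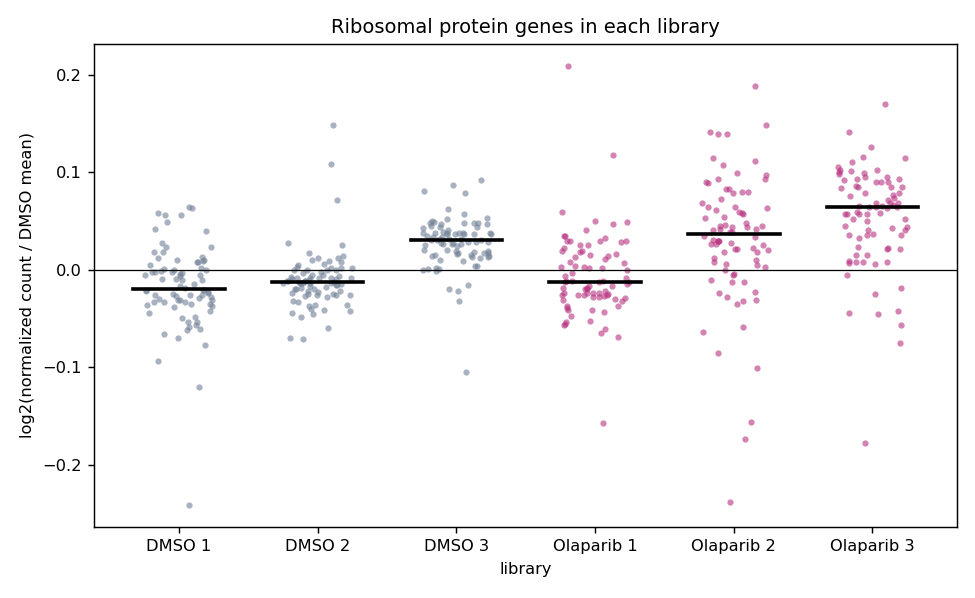
Each point is 1 of the 82 tested genes in 1 library, as log2 of its normalized count over the mean of the 3 DMSO libraries, and each black line is the library's median. The median rises above 0.03 in Olaparib 2, Olaparib 3 and DMSO 3 and is below 0 in the other libraries.

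The members took 5.29%, 5.49% and 5.57% of all counts in Olaparib 1, 2 and 3, and 5.33%, 5.30% and 5.42% in DMSO 1, 2 and 3. The groups overlapped, and the means of 5.45% ± 0.146 (SD, n = 3) and 5.35% ± 0.0627 (SD, n = 3) differed by 0.10 percentage points, less than the pooled SD of 0.112. Large subunit genes took 3.49% ± 0.0925 after Olaparib and 3.42% ± 0.0411 in DMSO, and small subunit genes 1.91% ± 0.0525 and 1.88% ± 0.0220 (SD, n = 3 each). A change in the total mRNA per cell cannot be seen in such shares.

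The stalk of the large subunit recruits elongation factors and is built from the proteins of RPLP0, RPLP1 and RPLP2. RPLP1 (chr15:69452814-69456205, GRCh38) had normalized counts, scaled to the mean library size, of 39812, 43221 and 43023 in Olaparib 1 to 3 and of 39056, 38869 and 39101 in DMSO 1 to 3. Every treated library was above every control, with Olaparib 1 nearest to them. The log2 fold change was 0.11 ± 0.029 (SE, adjusted p = 0.0280, edgeR).

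RPLP0, the scaffold of the stalk, had normalized counts of 56625, 58902 and 59562 after Olaparib and of 54402, 54924 and 56822 in DMSO. Olaparib 1 fell below DMSO 3, so the groups overlapped, and the log2 fold change of 0.076 ± 0.027 (SE) had an adjusted p of 0.140 (edgeR). For RPLP2 it was 0.038 ± 0.031 (SE, adjusted p = 0.635, edgeR), with 1 control library, DMSO 1, above Olaparib 1 and 2. The 3 stalk genes therefore gave 1 call, and whether their changes differ from each other was not tested.

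RPL28, another large subunit gene (chr19:55385932-55403250), had normalized counts of 18385, 19599 and 19409 after Olaparib and of 17420, 17717 and 18250 in DMSO. The groups did not overlap, with Olaparib 1 just above DMSO 3, and the log2 fold change was 0.10 ± 0.029 (SE, adjusted p = 0.0353, edgeR). Of the 64-base stretches of its main transcript, 0.965% occur exactly elsewhere in the genome, where reads can be hard to place.

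In the small subunit no gene was called, in either direction, and 6 of the 30 had an unadjusted p under 0.05, all higher. The largest fold change was that of RPS9, a protein at the mRNA entry site, at 0.079 ± 0.033 (SE, adjusted p = 0.217, edgeR), with Olaparib 1 below DMSO 2 and 3. RPS3, which lines the mRNA entry channel, had normalized counts of 68253, 71297 and 71443 after Olaparib and of 66662, 66080 and 67229 in DMSO. The groups did not overlap, and the log2 fold change was 0.077 ± 0.026 (SE, adjusted p = 0.112, edgeR). RPSA, whose protein is also known as the laminin receptor, likewise did not overlap, at 0.075 ± 0.027 (SE, adjusted p = 0.147, edgeR).

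Groups that do not overlap were also counted. Among the 82, 10 (12.2%) had every treated library above every control, against 10.0% of all genes and 16.2% of those with at least 1000 counts. They were RPLP1, RPL28, RPL10, RPL7L1, RPS3 and RPSA, and, named after their values were seen, RPL9, RPS7, RPS15A and RPS18. The opposite order held for 2 (2.44%), RPL39 among them, against 9.29% of all genes.

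**Figure D3:**
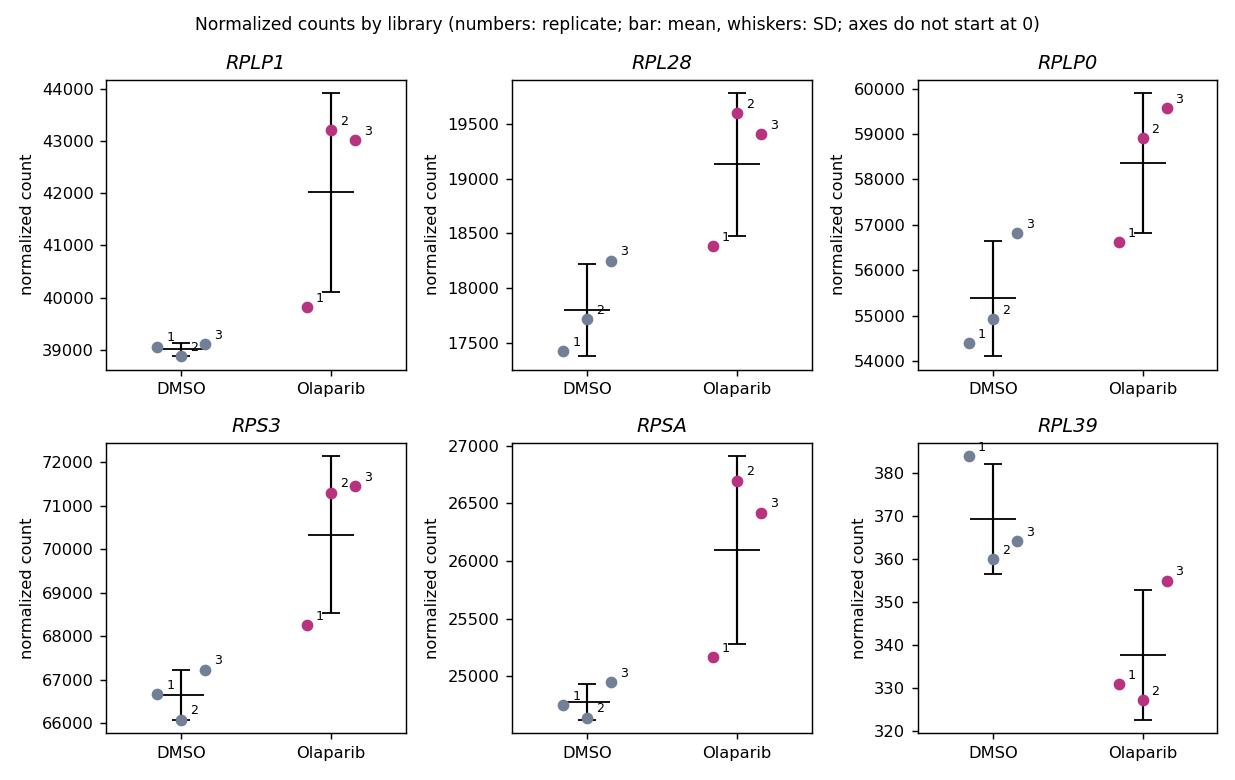
Normalized counts of 6 genes in each library, with the replicate number beside each point, the mean as a bar and the SD (n = 3) as whiskers, and the vertical axes do not start at 0. Olaparib 1 is the treated library nearest to the controls for RPLP1, RPL28, RPLP0, RPS3 and RPSA, and the 3 treated libraries are below the controls for RPL39.

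The lowest fold changes belonged to genes of low or variable count. RPL39, which lines the peptide exit tunnel, had normalized counts of 331, 327 and 355 after Olaparib and of 384, 360 and 364 in DMSO, and its log2 fold change of -0.13 ± 0.066 (SE) had an adjusted p of 0.375 (edgeR). RPL41, which encodes the shortest ribosomal protein, stood at 2398, 2075 and 2374 against 2072, 2714 and 2609. DMSO 1 was as low as the lowest treated library, and the log2 fold change was -0.11 ± 0.061 (SE, adjusted p = 0.406, edgeR). Without DMSO 1 it was -0.22 with an adjusted p of 0.00915, the lowest of a range up to 0.879 over the alternatives.

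RPL17, a protein at the exit tunnel, was at -0.083 ± 0.061 (SE, adjusted p = 0.588, edgeR) and RPS10 at -0.053 ± 0.12 (SE, adjusted p = 0.900, edgeR), both with overlapping groups.

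RPL5 and RPL11 form a complex with 5S rRNA that binds MDM2 and stabilizes p53 when ribosome assembly is disturbed. RPL5 had 61145, 59500 and 60060 normalized counts after Olaparib against 61221, 59955 and 61388, a log2 fold change of -0.015 ± 0.026 (SE, adjusted p = 0.862, edgeR). RPL11 had 43144, 44568 and 45450 against 42679, 43705 and 44611, a log2 fold change of 0.024 ± 0.027 (SE, adjusted p = 0.762, edgeR). Both genes overlapped between groups, with 95% intervals from -0.067 to 0.038 and from -0.032 to 0.079.

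RPS6, the subunit protein that S6 kinase phosphorylates downstream of mTOR, gave a log2 fold change of 0.017 ± 0.026 (SE, adjusted p = 0.840, edgeR). RPS27A, whose product is a fusion with ubiquitin, gave 0.028 ± 0.027 (SE, adjusted p = 0.709, edgeR), and RPS4X, the X-linked copy of RPS4, 0.026 ± 0.027 (SE, adjusted p = 0.717, edgeR). The groups overlapped for all 3.

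Some paralogs can replace their partner in the ribosome, and several are restricted to testis or muscle. Of the 10, 6 were tested and none was called. RPL3L, the muscle and heart form of RPL3, had 1 or 2 counts in each library and RPL10L, a testis form of RPL10, had 1 count in all, so neither was tested, and the Y-linked RPS4Y1 and RPS4Y2 were not tested either. Their partners RPL3 and RPL10 gave log2 fold changes of 0.053 ± 0.026 and 0.034 ± 0.026 (SE), neither called. At -0.074 ± 0.049 (SE, adjusted p = 0.521, edgeR), RPS27L, a p53 target, had the lowest fold change of a paralog. Its normalized counts were 777, 764 and 769 after Olaparib against 834, 772 and 827, so that Olaparib 1 lay above DMSO 2.

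Levels per kilobase of the main transcript allow for its length but not for how reads were placed. By this measure RPL22L1 was 57.7% ± 2.42 of RPL22 after Olaparib and 56.3% ± 3.24 in DMSO (SD, n = 3). RPL26L1 was 9.68% ± 0.110 of RPL26 against 9.57% ± 0.172, and RPL7L1, which is named for RPL7 but works in ribosome assembly, was 3.20% ± 0.121 of RPL7 against 3.24% ± 0.0687. In these 3 pairs the ratio differed between groups by less than the SD of either. RPS27L was 0.281% ± 0.00861 of RPS27 after Olaparib and 0.308% ± 0.0193 in DMSO, and in each treated library the ratio was below that of each control. These ratios are ratios of levels and were not tested between groups. The RPS27L transcript used for length has 6110 bases against 352 for RPS27.

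RPL39L and RPL36AL had higher counted levels per kilobase than their partners. RPL39L was 352% ± 27.5 of RPL39 after Olaparib and 309% ± 12.3 in DMSO, with every treated library above every control, and RPL36AL was 1046% ± 105 of RPL36A after Olaparib and 1116% ± 43.3 in DMSO, with overlapping groups (SD, n = 3). These ratios were not tested either, and how often ratios of other gene pairs do not overlap was not counted. Both partners, RPL39 and RPL36A, are among the genes of low level described next. The fold changes of the paralogs were 0.060 ± 0.043 for RPL39L, -0.037 ± 0.033 for RPL36AL, 0.020 ± 0.042 for RPL22L1, -0.0091 ± 0.043 for RPL26L1 and 0.029 ± 0.031 for RPL7L1 (log2, SE). Those of the partners were 0.044 ± 0.027 for RPL7, -0.016 ± 0.035 for RPL22, -0.025 ± 0.031 for RPL26, 0.063 ± 0.059 for RPL36A and 0.054 ± 0.032 for RPS27 (log2, SE). None of these 10 genes was called.

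Ribosomal protein levels per kilobase covered a wide range. Over the 76 large and small subunit genes tested, the median DMSO level was 26507 normalized counts per kb of main transcript, with quartiles of 10457 and 42917. RPL8 was highest at 100131 ± 2270 (SD, n = 3), then RPL7A at 75300 ± 1328 and RPL30 at 63577 ± 2352, all of the large subunit. After Olaparib they stood at 104470 ± 4182, 76541 ± 1230 and 65471 ± 2753, and none was called. RPS10 was lowest, at 178 ± 12.6 in DMSO and 172 ± 18.6 after Olaparib.

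A level under 10% of the median was seen for 6 of the 76, and several of these had features that can hinder the counting of reads. RPS10 shares 84.0% of its main transcript with other genes annotated on the same strand and RPL17 96.9%, both through readthrough genes, and RPL36A 43.8%. RPL26, which is not among the 6, shares 65.3% at a DMSO level of 22164 per kb. For RPL39 there was no such overlap, but 93.6% of its 64-base stretches occur exactly elsewhere in the genome, and the same held for 89.9% of RPS10 and 84.6% of RPL17. RPL22 and RPS15A, the other two, had 32.3% and 47.1%. RPL21 and RPS3A, picked after their values were seen, and RPS27 had 100%, 95.8% and 94.8% of their stretches elsewhere and DMSO levels of 25794, 12148 and 43179 per kb. The choice of transcript also sets these levels, since that of RPL28 has 4209 bases.

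The readthrough genes RPL17-C18orf32, RPL36A-HNRNPH2 and RPS10-NUDT3 were listed at 0 in all 6 libraries and were not tested.

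**Figure D4:**
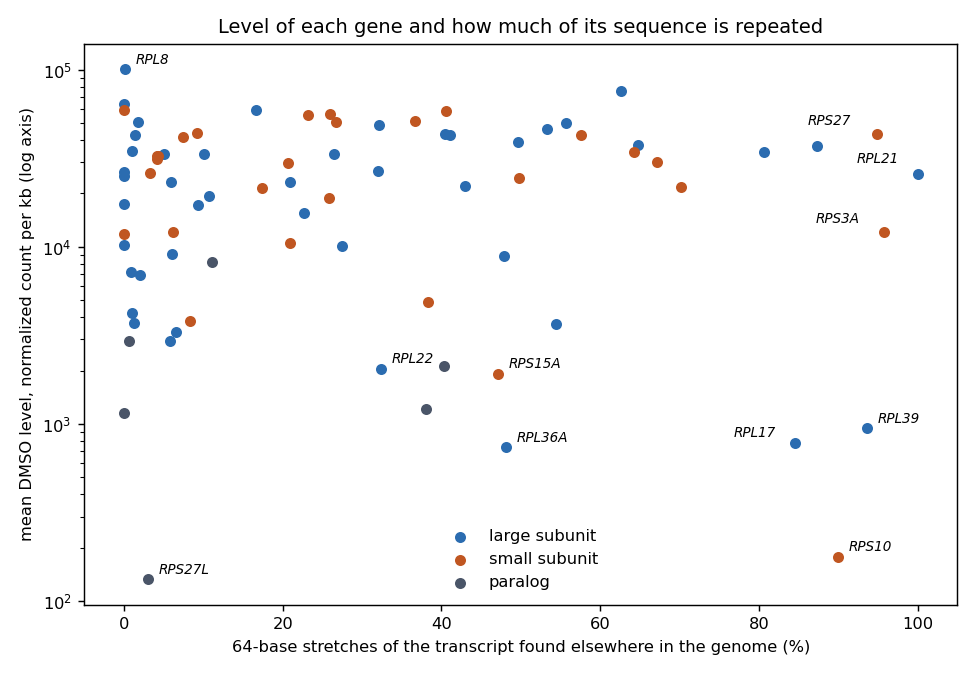
Mean level in the 3 DMSO libraries, as normalized counts per kb of main transcript on a log axis, against the percentage of 64-base stretches of that transcript found exactly elsewhere in the genome. RPL39, RPL17 and RPS10 combine a low level with over 80% repeated sequence, while RPL21, RPS3A and RPS27 have as much repeated sequence at levels of 12148 per kb or more.

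Processed pseudogenes, copies of these mRNAs set back into the genome, can take or lend reads. Ribosomal protein pseudogenes were matched by symbol, and not all of them are annotated as processed. The 330 tested had a median log2 fold change of -0.18, where the 1236 other processed pseudogenes had -0.16. Of the 330, 6 (1.82%) were called lower and 0 higher, against 0.81% and 0.49% of the other processed pseudogenes. Over all genes 1.21% were called lower and 2.15% higher. The ribosomal protein pseudogenes took 0.0275% ± 0.000397 of counts after Olaparib and 0.0291% ± 0.000763 in DMSO (SD, n = 3), with all treated libraries below all controls. Pseudogenes of RPS2 weigh most in this share, with 27168 counts over all libraries, followed by those of RPL10 with 5378. The share without them was not examined. With these counts added to the parent genes, 3 members were called, RPLP1 and RPL28 again among them.

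Introns of many ribosomal protein genes hold small nucleolar RNAs (snoRNAs), which guide rRNA modification. The 28 tested members that contain a snoRNA gene had a median log2 fold change of 0.033 and the 54 others 0.029. By start sequence, the 59 tested members with a pyrimidine tract had a median of 0.029 and the 8 without one 0.0078. By subunit it was 0.029 for the 46 large subunit genes, 0.035 for the 30 small subunit genes and 0.0052 for the 6 paralogs. Whether these medians differ was not tested.

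Ribosomal proteins with other symbols moved in the same range. FAU, which encodes a ubiquitin-like protein fused to RPS30, had 12364, 13411 and 13517 normalized counts after Olaparib against 12331, 12017 and 12382. Olaparib 1 lay below DMSO 3, and the log2 fold change was 0.097 ± 0.031 (SE, adjusted p = 0.0792, edgeR). Without Olaparib 1 it was 0.14 with an adjusted p of 0.00221, the lowest of a range up to 0.394 over the alternatives. RACK1, a scaffold on the small subunit, gave 0.011 ± 0.030 (SE) and was not called.

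Of the wider pathway, 231 genes in 9 lists were tested. The factors with TOP mRNAs (15 tested, median log2 fold change 0.017), the RNA polymerase I machinery that transcribes rRNA (16, 0.0049), the mTOR and TOP control genes (17, 0.054), the chaperones and importins of ribosomal proteins (11, 0.033) and the ribosome surveillance factors (13, 0.0045) gave no call in either direction. At an unadjusted p of 0.05 these 5 lists held 3, 2, 4, 1 and 0 genes higher and 1, 1, 0, 0 and 1 lower. At that level 7.83% of all genes were higher and 6.97% lower, and 13.9% and 7.97% of those of at least 1000 counts.

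Ribosome biogenesis factors (51 tested, median 0.0021) gave 3 calls, all higher. Over all genes 2.15% were called higher, and over those of at least 1000 counts 4.16% were. UTP20, a component of the small subunit processome, stood at 4047, 3876 and 3747 in the treated libraries and at 3494, 3473 and 3160 in the controls (normalized counts), with a log2 fold change of 0.20 ± 0.040 (SE, adjusted p = 0.00158, edgeR). HEATR1, also of the processome, rose by 0.15 ± 0.032 (SE, adjusted p = 0.00407, edgeR), and MDN1, the AAA ATPase that remodels pre-60S particles, by 0.16 ± 0.041 (SE, adjusted p = 0.0260, edgeR). In all 3 the treated libraries lay above the controls. Without DMSO 3 none of the 3 passed, with adjusted p-values of 0.0505, 0.0736 and 0.257 in the order given, and MDN1 also missed it without Olaparib 1 (0.110) or Olaparib 2 (0.0722).

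Among 29 initiation factors (median 0.0045) 1 gene was called lower, as were 1.21% of all genes. EIF4A1, the RNA helicase of the cap-binding complex, reached 375, 335 and 360 in the treated libraries and 473, 483 and 431 in the controls (normalized counts), a log2 fold change of -0.37 ± 0.064 (SE, adjusted p = 3.19e-04, edgeR) that passed with each library left out. Its main transcript lies 100% within other genes annotated on the same strand in GENCODE 44, and how the reads there were counted is not given in the sources used here. Of the mitochondrial ribosomal protein genes (76 tested, median 0.023), MRPS6 alone was called, at 0.17 ± 0.046 (SE, adjusted p = 0.0295, edgeR), and DESeq2 gave 0.0827, with 0.0102 to 0.133 over the alternatives. Over all genes 2.15% were called higher. Of the main MRPS6 transcript, 33.1% lies within other genes annotated on the same strand.

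**Figure D5:**
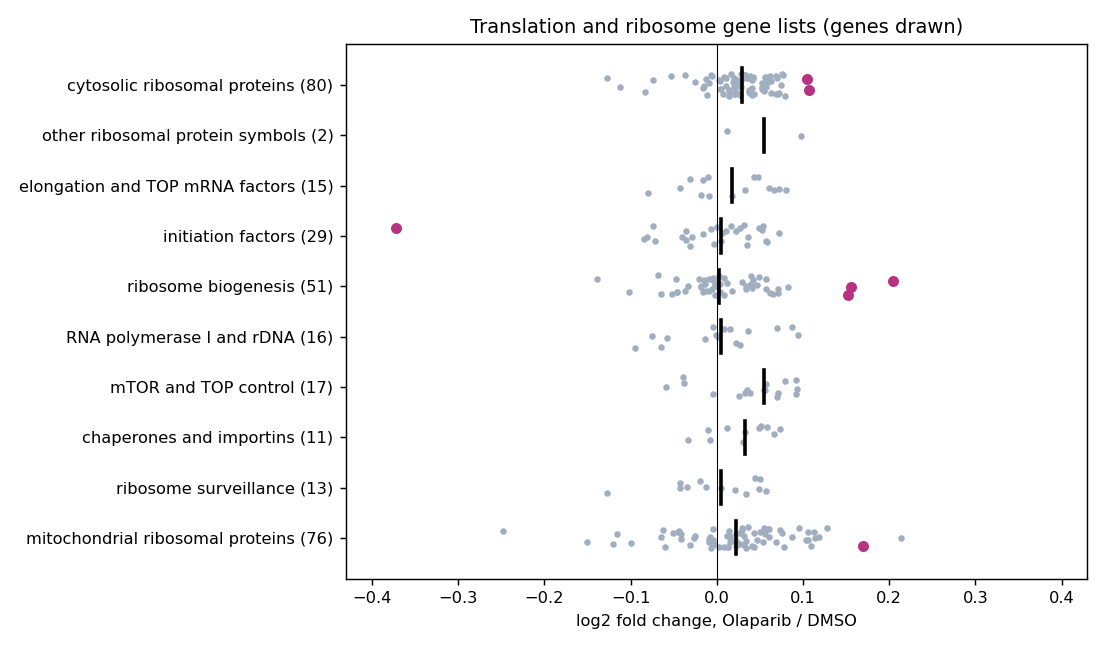
Log2 fold change (Olaparib against DMSO) of tested genes among the ribosomal protein genes and 9 lists of related genes, with the number drawn in brackets (2 tested members and 1 listed gene are not drawn) and the median as a black line. Filled larger points passed an adjusted p of 0.05. The members lie within -0.13 to 0.13, EIF4A1 is the point near -0.37, and 1 mitochondrial ribosomal protein gene lies beyond the axis.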

How the data were processed

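Libraries of polyadenylated RNA from 3 Olaparib and 3 DMSO samples were sequenced. The deposited values are raw counts per gene, which the authors made by trimming reads, aligning them with STAR to GRCh38 and counting with featureCounts. The strand setting and the treatment of reads that match several genes or places are not given in the sources used here. Of the gene identifiers listed, 81.9% are in GENCODE 44, so the counts were made with another annotation release.

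Genes with more than 10 counts in total were fitted with edgeR 4.0.16 in R 4.3.3 (TMM factors, quasi-likelihood test, no covariate), as the unit is counts; p-values were adjusted by Benjamini and Hochberg over all 21729 genes. DESeq2 1.42.0, limma 3.58.1 (voom), other scalings and filters, added pseudogene counts, a replicate block and each library left out were alternatives. The fit was tested on simulated counts. Normalized counts are scaled to the mean library size; levels per kb divide by the main GENCODE transcript. Repeated stretches are exact 64-base matches in GRCh38. At these depths 3 counts, the limit that a count of 0 allows, are 0.0757 to 0.0848 CPM, and such limits cover counting error only.

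The members and lists were chosen with earlier results of these data known. Genes named with values were members past an adjusted p of 0.05, the 5 largest rises and falls with a mean of at least 20 counts, the paralogs and their partners, the stalk, RPL5, RPL11, RPS6, RPSA, RPS27A, the 3 of highest level per length and called genes of the lists, at most 4 per list; RPL9, RPS7, RPS15A, RPS18, RPL21, RPS3A, FAU and RACK1 were added after values were seen. Results of some single genes that this rule covers are not reported here.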

Additional observations from a re-analysis of the deposited data

How the results depend on the processing

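The median log2 fold change over the members was positive in all 16 alternatives, from 0.020 to 0.030 under other tests, scalings and filters and from 0.013 to 0.050 with each library left out. The count of members called higher was 5 without the low-count filter and 9 with a replicate block, and between 0 and 13 with each library left out; the count called lower was 0 to 1 and the count past a fold of 1.2 was 0 throughout. Over all genes with a mean of at least 20 counts, deviations from the group means had correlations of -0.079, 0.10 and -0.10 between same-numbered libraries. Pairing over the members alone was not tested, and their library medians rose in replicate order in both groups. The share of counts differed by 0.0380 to 0.180 percentage points with each library left out.

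Over the pathway lists, calls higher were 12 and calls lower 6 with the replicate block, calls lower were 2 under limma voom, and with each library left out calls ranged from 0 to 10 higher and from 1 to 3 lower. With each library left out, small log2 fold changes turned in direction: RPL22 (-0.030 to 0.0054), RPL22L1 (-0.015 to 0.049), RPL26 (-0.055 to 0.0058), RPL26L1 (-0.031 to 0.016), RPL36A (-0.014 to 0.11), RPS10 (-0.14 to 0.0064) and RACK1 (-0.017 to 0.039). The cause was not tested. RPL28 missed the threshold with upper quartile factors (adjusted p = 0.0566, edgeR) and RPLP1 with filterByExpr (adjusted p = 0.0514, edgeR). Low counts limited RPS10, with a mean of 103 counts, and the genes not tested had few or no counts or were absent from the count table. Whether depth, the assignment of reads or a lack of expression set these low counts was not tested.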
